A study of Mus musculus with 6 samples.

Results

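The genes described here encode the proteins of the cytosolic ribosome in mouse embryonic fibroblasts (MEFs), the connective tissue cells grown from mouse embryos. They were chosen by name: every protein-coding gene whose symbol is Rpl or Rps followed by a digit, with Rplp0, Rplp1, Rplp2 and Rpsa, and without the S6 kinases, the binding protein Rps19bp1 and symbols marked as pseudogenes. This gave 85 genes among 16784 protein-coding genes and 22355 genes in all, 51 for the large subunit and 34 for the small subunit. Of these, 77 are the usual genes of a ribosomal protein and 8 are second genes for one of them. RNA was sequenced from MEFs transfected with an siRNA against Hk2 (siHk2, 3 libraries) or with a negative control siRNA (siControl, 3 libraries). Small interfering RNAs (siRNAs) are short duplexes that direct the cleavage of transcripts they match, and Hk2 encodes hexokinase 2, the enzyme that traps glucose in the cell at the start of glycolysis. The design asks what the loss of Hk2 transcript changes, both groups being transfected MEFs and no untransfected cells being included. The labels give no strain, embryo age, passage or time after transfection, and nothing in them says whether libraries came from separate cultures, so p-values measure only the spread between these libraries.

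A ribosome is built from a small subunit, which reads the messenger RNA, and a large subunit, which joins amino acids. Each carries one copy of nearly every ribosomal protein, so the cell makes these proteins in matched amounts, and proteins left without a subunit are degraded. Their messenger RNAs are among the most abundant in a growing cell, are mostly short, and begin with a run of C and T letters (a terminal oligopyrimidine, or TOP, motif) through which nutrient and growth signals set their translation. Transcript levels therefore tell only part of how much ribosomal protein is made.

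The target was lower in every siHk2 library. Hk2 stood at 57.1, 62.5 and 58.9 TPM (a length-corrected share of each library, scaled to the same total) in siControl and at 22.4, 21.4 and 21.8 TPM in siHk2, which is -1.40 ± 0.06 on the log2 scale (SE; adjusted p = 0.00022 in limma). Over all 13341 genes tested, with a mean of at least 1 TPM, 820 were higher and 990 lower in siHk2 at an adjusted p under 0.05. Of the fibroblast markers, Vim, Col1a1, Col1a2, Col3a1, Pdgfra and Pdgfrb were present, while Thy1 and Dcn stayed under 1 TPM in every library. Vim was lower in siHk2 (-0.26, adjusted p = 0.011), and the summed list was at 3370.1 ± 60.1 TPM (SD, n = 3) in siControl and 3137 ± 81.7 TPM in siHk2. Vim made up most of that sum in every library. Col1a1, Col1a2, Col3a1 and Pdgfrb had positive log2 fold changes (0.63, 0.15, 0.20 and 0.20) and Pdgfra had -0.06, none of them passing. The median of the 6 tested fibroblast markers was 0.17, so they did not fall together. Among markers of other cell types 2 passed the test, both higher in siHk2. The summed epithelial list, of which only Krt7 reached the tested level, ran from 1.98 to 2.43 TPM in the controls and from 6.02 to 8.57 TPM in siHk2, with Epcam and Cdh1 under 0.1 TPM throughout. The summed neural and glial list ran from 89.9 to 94.9 TPM in the controls and from 136.8 to 148.4 TPM in siHk2, nearly all of it S100b, with Sox10 under 0.1 TPM. Their part in the results below was not tested, and in bulk RNA fewer cells of a type and less RNA per cell cannot be told apart.

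As a group the ribosomal protein genes differed little between siHk2 and siControl. None was higher and 2 were lower at an adjusted p under 0.05, Rpl21 and Rpl12, and 83 of 85 did not pass. These 2 are 2.35% of the genes, where 13.6% of all tested genes passed (6.15% higher, 7.42% lower). At an unadjusted p under 0.05 there were 7 higher and 11 lower, together 21.2% against 30.7% of all tested genes. The log2 fold changes, siHk2 minus siControl on the log2(TPM + 1) scale, ran from -0.39 for Rps10 to 0.69 for Rpl38. Their median was 0.05, and that of all tested genes was 0.01. For 61 genes the 95% interval of the log2 fold change lay within 0.5 either way, and for 36 it lay within 0.25. The counts depended on which libraries were used. Without siControl library 6, 32 of the genes were higher and 5 lower, where 7.66% of all tested genes were higher and 8.27% lower. Without any other single library none was higher or lower. In those fits fewer of all tested genes passed as well, from 1.43% to 5.6% higher and from 2.35% to 5.98% lower. With limma's library weights, which give less weight to libraries that vary more, 22 were higher and 8 lower, where 15.2% and 15.1% of all tested genes were.

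The summed level differed as little. The 85 genes together made up 68984.6, 71102.3 and 78075.7 TPM in the controls and 74868.9, 72449.7 and 75450.7 TPM in siHk2. The lowest and the highest library were both controls, and the siHk2 libraries lay between them. The means were 72721 ± 4757 TPM (SD, n = 3) and 74256 ± 1592 TPM, a ratio of 1.02, and the genes took between 6.90% and 7.81% of a library. The large subunit genes had a ratio of 1.01 and the small subunit genes one of 1.03.

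**Figure D1:**
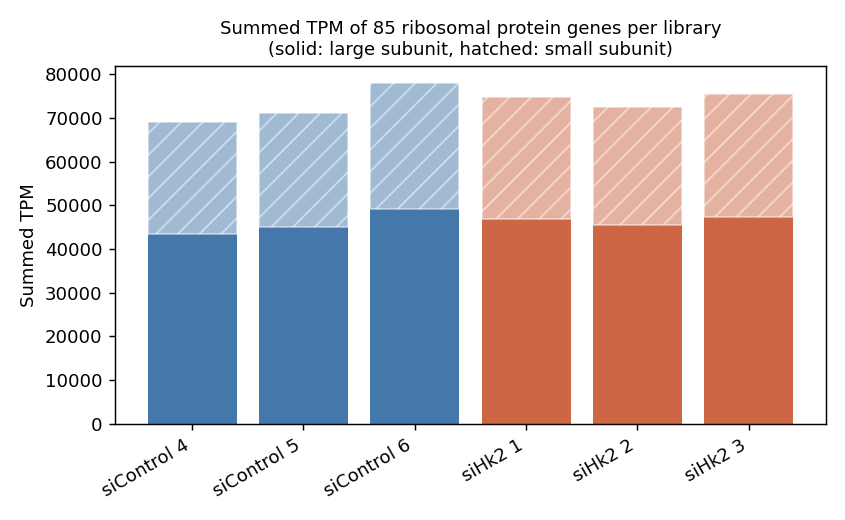
Summed TPM of the 85 ribosomal protein genes in each library, solid for the 51 large subunit genes and hatched for the 34 small subunit genes, siControl in blue and siHk2 in orange. The siHk2 libraries, from 72449.7 to 75450.7 TPM, lie between siControl library 4 at 68984.6 TPM and siControl library 6 at 78075.7 TPM.

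The control libraries did not agree on these genes. Library 6 gave the highest control value for 68 of the 85 genes (80%), while it did so for 33.0% of all tested genes, and it was the highest of all 6 libraries for 51 genes (60%, against 15.2% of all tested genes). The median deviation of the 85 genes from their own mean over the 6 libraries, on the log2 scale, was -0.10, -0.06 and 0.13 in siControl libraries 4, 5 and 6. In siHk2 libraries 1, 2 and 3 it was 0.04, -0.01 and 0.04. For 44 genes siControl libraries 4 and 5 were each below every siHk2 library, and for 42 of these library 6 was not. The same count was not made over all tested genes, so the 44 cannot be set against a share. All 3 controls were below every siHk2 library for 2 of the 85 genes, against 17.6% of all tested genes. The median coefficient of variation was 10.2% among the controls and 2.86% among the siHk2 libraries, and it was the larger among the controls for 73 genes. For 1901 other genes of at least 100 TPM these medians were 5.25% and 3.11%. Library 6 also had the lowest share of mitochondrially encoded transcripts, 7.42% against 8.36% and 8.07% in the other controls and 7.94% to 8.19% in siHk2, and the part of whatever sets it apart in these results was not tested.

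**Figure D2:**
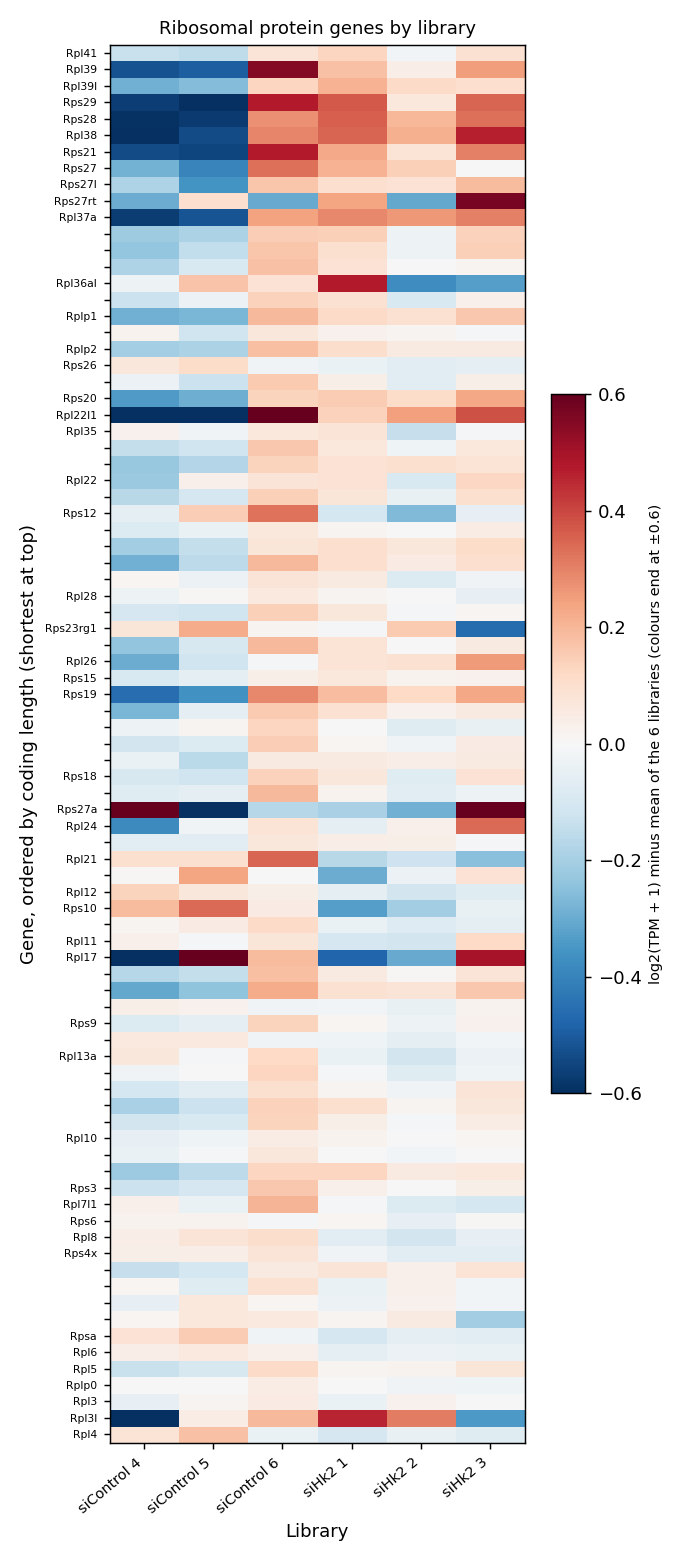
Each row is a ribosomal protein gene and each column a library, coloured by log2(TPM + 1) minus the gene's mean over the 6 libraries, with the shortest coding sequence at the top and only some of the rows labelled. Most of the upper rows are blue in siControl libraries 4 and 5 and red in siControl library 6 and in most siHk2 libraries. Most of the lower rows are pale, and a few rows such as Rpl17 and Rps27a vary within both groups.

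The lateral stalk of the large subunit, which brings elongation factors to the ribosome, held the most abundant gene of all. Rplp0, the anchor of the stalk, was at 5599, 5601 and 5761 TPM in the controls and 5607, 5509 and 5487 TPM in siHk2, a log2 fold change of -0.03 ± 0.04 (adjusted p = 0.687). Its groups overlapped, and its whole range was within a few percent of its mean. Rplp1, one of the acidic proteins that Rplp0 carries, was at 3038, 3073 and 4253 TPM in the controls and 4023, 3952 and 4153 TPM in siHk2. Libraries 4 and 5 were below every siHk2 library and library 6 was above them all, and the log2 fold change of 0.24 ± 0.12 did not pass (adjusted p = 0.233; 0.40 without library 6, adjusted p = 0.00215, and 0.16 without library 4, adjusted p = 0.518). Rplp2, its partner, likewise had libraries 4 and 5 lowest and library 6 highest, at 350.2, 352.9 and 457 TPM against 433, 418.9 and 418.3 TPM (log2 fold change 0.14 ± 0.10, adjusted p = 0.383; 0.27 without library 6, adjusted p = 0.00583, and 0.08 without library 4 or 5, adjusted p = 0.719 and 0.649).

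Rpl12, which sits at the base of that stalk, was lower in siHk2. Its gene lies on chromosome 2 (32851571 to 32855357, plus strand, in the table's coordinates on GRCm39). The values were 1144, 1093 and 1069 TPM in the controls and 1005, 966 and 990 TPM in siHk2. Each siHk2 library was below each control, and the log2 fold change was -0.16 ± 0.04, with an adjusted p of 0.04997 in limma that is only just under 0.05. Without siControl library 6 it was -0.18 with an adjusted p of 0.0222. Leaving out any other library ended the call, as did quantile normalisation, a pseudocount of 0.5 and no filter on low values. So did a fit without the mean-variance trend, and a total without ribosomal protein and mitochondrial genes. Rpl12 was called in 7 of 17 settings.

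Rpl21, a large subunit protein, had the larger fall of the pair but a low level. It lies on chromosome 5 (146769700 to 146773842, plus strand, GRCm39) and stood at 14.4, 14.4 and 17.3 TPM in the controls and 11.8, 12.2 and 11.1 TPM in siHk2. The groups did not overlap, library 6 was the highest control, and the log2 fold change was -0.36 ± 0.09 (adjusted p = 0.0438). Without library 6 it was -0.28 (adjusted p = 0.0688), and the call was also lost without any other single library. No filter on low values (adjusted p = 0.0947) and no mean-variance trend (adjusted p = 0.061) ended it too, and Rpl21 was called in 9 of 17 settings. In the reference transcripts, 55.5% of the 50-base windows of Rpl21 also occur in transcripts of other genes or pseudogenes, so the way shared reads were counted bears on its value.

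Of the proteins around the catalytic centre and the exit tunnel of the large subunit, Rpl8 and Rpl4 had lower values in every siHk2 library without passing the test. Rpl8, next to the site where peptide bonds form, was at 2918, 2992 and 3053 TPM in the controls and 2708, 2626 and 2740 TPM in siHk2. The groups were apart, with a log2 fold change of -0.15 ± 0.04 and an adjusted p of 0.0595. It was called when library 6 was left out (-0.13, adjusted p = 0.0408 in limma), but not when any other single library was. Under quantile normalisation it was -0.04 (adjusted p = 0.418). Rpl4, which lines the tunnel, was at 2307, 2459 and 2116 TPM against 2031, 2115 and 2069 TPM, groups separated by less than the spread within either (log2 fold change -0.14 ± 0.06, adjusted p = 0.157). Rpl3, the other large protein at the centre, was at 685, 716 and 732 TPM against 689, 720.4 and 707 TPM and its groups overlapped. In all, 11 genes had every siHk2 library below every control, among them Rpl21, Rpl12, Rpl8, Rps10, Rpsa, Rps4x, Rpl6, Rpl4, Rpl13a and Rps26. With 2 genes in the other direction, Rpl26 and Rpl37a, that is 15.3% of the genes, against 35.7% of all tested genes (17.6% higher, 18.1% lower). The 11 have coding sequences of 345 to 1257 bases with a median of 609 bases, beside a median of 453 bases over the 85 genes.

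Rpl5 and Rpl11 enter the large subunit together with its small RNA made by RNA polymerase III, and outside the ribosome both bind Mdm2, the ubiquitin ligase of p53. Rpl5 was at 682, 700.5 and 809.7 TPM in the controls and 757, 759 and 786 TPM in siHk2 (log2 fold change 0.07 ± 0.07, adjusted p = 0.506; 0.15 without library 6, adjusted p = 0.0323, and 0.03 and 0.05 without library 4 or 5). Rpl11 was at 501, 487 and 517 TPM against 457, 454 and 534 TPM (-0.06 ± 0.07, adjusted p = 0.584). The groups overlapped for both. Rpl10, which joins the large subunit late in its making, was at 1459, 1487 and 1560.2 TPM against 1534, 1509 and 1523 TPM and overlapped as well.

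The highest log2 fold changes belonged to very small proteins of both subunits, and for these the control libraries lay far apart; they are named because of their values. Rpl38, needed for normal patterning of the skeleton in mice, was at 288, 341 and 608 TPM in the controls and 633, 577 and 687 TPM in siHk2. Libraries 4 and 5 were below every siHk2 library, and library 6 lay among the siHk2 values. Over all libraries the log2 fold change was 0.69 ± 0.25 (adjusted p = 0.107 in limma). Without library 6 it was 1.01 ± 0.09 (adjusted p = 0.00317). Without library 4 or 5 it was 0.47 and 0.59 (adjusted p = 0.276 and 0.203).

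Rpl37a, a zinc-binding protein of the large subunit, was at 275, 284 and 483 TPM in the controls and 499, 488.5 and 503 TPM in siHk2. Here library 6 came just under the lowest siHk2 library, so that the groups did not overlap. The log2 fold change was 0.57 ± 0.20 (adjusted p = 0.0984 in limma), and 0.83 without library 6 (adjusted p = 0.000519). It was 0.42 and 0.45 without library 4 or 5 (adjusted p = 0.268 and 0.196).

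Rps28, at the messenger RNA exit of the small subunit, was at 133, 135 and 243 TPM in the controls and 258, 231 and 253 TPM in siHk2 (log2 fold change 0.60 ± 0.22, adjusted p = 0.109; 0.88 without library 6, adjusted p = 0.00144). Rps29, a zinc-binding protein of its head, was at 228, 209 and 471 TPM against 436, 354 and 432 TPM (0.52 ± 0.28, adjusted p = 0.264; 0.89 without library 6, adjusted p = 0.00396, and 0.30 without library 5, adjusted p = 0.508). Rps21 was at 242, 239 and 487 TPM against 411, 371 and 433 TPM (0.41 ± 0.26, adjusted p = 0.33; 0.75 without library 6, adjusted p = 0.00258, and 0.24 and 0.23 without library 4 or 5, adjusted p = 0.651 and 0.595). Without library 4 or 5 the log2 fold change of Rps28 was 0.45 and 0.46 (adjusted p = 0.294 and 0.217 in limma). In Rps28 library 6 lay inside the siHk2 range. In Rps29 and Rps21 it was the highest of all 6 libraries, and libraries 4 and 5 were the lowest. Rpl39, a short protein in the exit tunnel, likewise had library 6 highest and libraries 4 and 5 lowest, at 149.7, 152.8 and 317 TPM against 244, 221 and 256 TPM (0.31 ± 0.27, adjusted p = 0.482; 0.66 without library 6, adjusted p = 0.00322, and 0.12 and 0.14 without library 4 or 5, adjusted p = 0.832 and 0.776). Rpl41, one of the shortest proteins known, differed less, at 2695, 2666 and 3121 TPM against 3235, 2929 and 3156 TPM. Its log2 fold change was 0.14 ± 0.07 (adjusted p = 0.253 in limma), and 0.21 without library 6 (adjusted p = 0.0304). It was 0.11 and 0.10 without library 4 or 5 (adjusted p = 0.508 and 0.454).

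**Figure D3:**
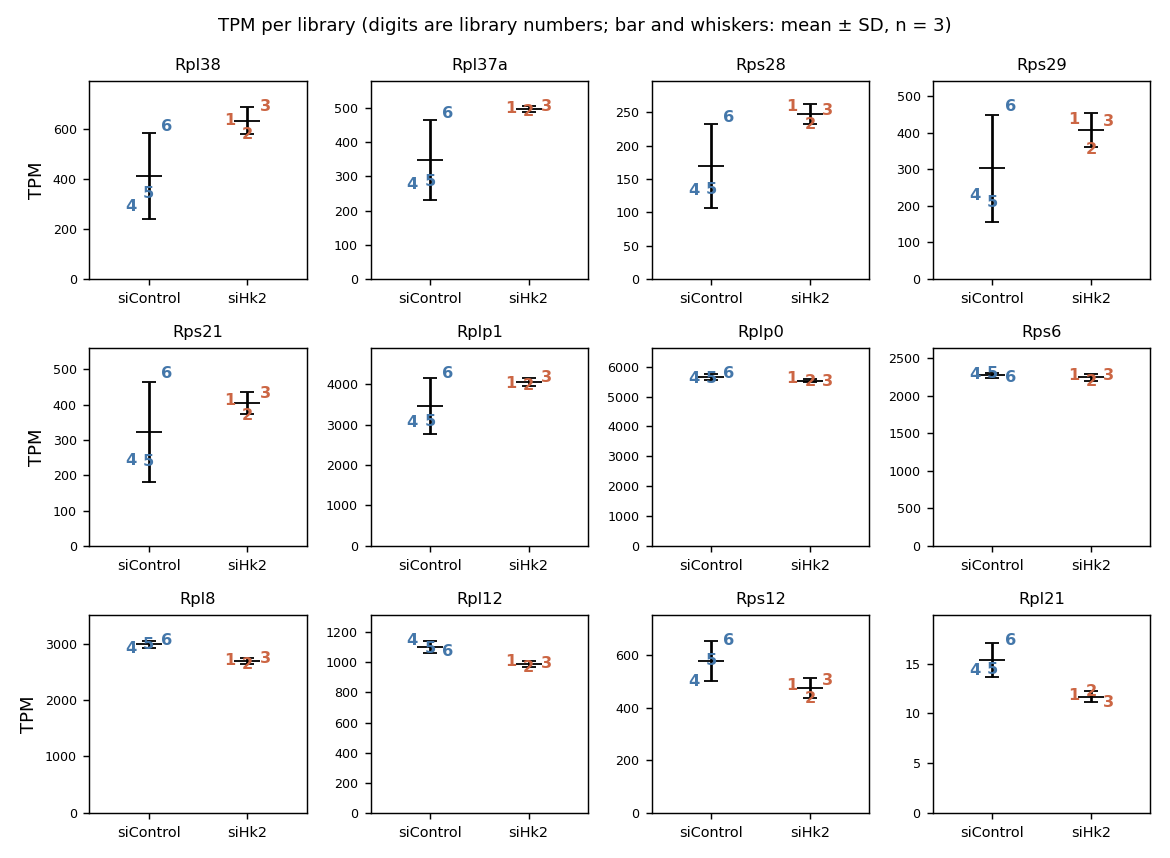
TPM of 12 ribosomal protein genes, each digit a library, with the mean and SD of each group of 3 and axes that start at 0. In Rpl38, Rpl37a, Rps28, Rps29, Rps21 and Rplp1, siControl libraries 4 and 5 lie low and library 6 lies with the siHk2 libraries, while in Rplp0 and Rps6 all libraries lie close together and in Rpl8, Rpl12 and Rpl21 each siHk2 library lies below each control.

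The start of the transcript is where the TOP motif lies, and it is shown for some small proteins that varied so much and for some members that varied less. The RefSeq promoter table for GRCm38.p6 held 65 of the 85 genes. Each sequence has 30 bases around the annotated start, 5′ to 3′ on the strand of the gene, and the capitals mark the run of C and T letters across that start. The run was followed in both directions, so capitals can lie before the annotated first base. In Rpl39 only the last of them lies within the annotated transcript. Rpl38 (chr11:114668565-114668594, plus strand), Rps21 (chr2:180257364-180257393, plus strand), Rpl39 (chrX:37085208-37085237, minus strand) and Rps27 (chr3:90213634-90213663, minus strand) varied among the controls. Rpl28 (chr7:4792950-4792979, plus strand), Rps9 (chr7:3704026-3704055, plus strand), Rpl35 (chr2:39005117-39005146, minus strand) and Rps6 (chr4:86857353-86857382, minus strand) varied less. Even so, library 6 stood above the other controls in Rps9, at 788.3 TPM against 678.5 and 689.3 TPM.
Rpl38: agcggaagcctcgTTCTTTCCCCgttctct
Rps21: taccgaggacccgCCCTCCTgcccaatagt
Rpl39: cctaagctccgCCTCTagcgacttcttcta
Rps27: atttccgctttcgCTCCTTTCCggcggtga
Rpl28: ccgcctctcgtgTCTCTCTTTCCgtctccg
Rps9: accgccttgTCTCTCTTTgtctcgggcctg
Rpl35: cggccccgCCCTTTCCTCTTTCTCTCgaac
Rps6: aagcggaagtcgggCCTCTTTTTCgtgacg
These 8 genes were picked from those with a run of at least 5 letters. Others have none across their annotated start, among them Rpl22l1, which varied among the controls, and Rplp0, which did not. In all, a run of at least 5 such letters crossed the annotated start of 22 of the 65 genes (33.8%) and of 11.8% of the 27025 genes in the table. It did so for 5 of the 11 genes with coding sequences of up to 300 bases and for 17 of the 54 longer ones. Annotated starts can be a few bases off, so a missing run says only that these letters are not at the annotated base. A run across that base is likewise not by itself a TOP motif.

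Within the 300 bases from 250 before to 50 after the start, several short motifs were counted on both strands, none of them a part of another. A gene was counted if any of its promoters in the table held the motif. CCGGAAG, the core bound by ETS factors such as GABP, was found for 40% of the ribosomal protein genes and 9.9% of all genes there. AAGATGG, the core of the YY1 motif, was in 15.4% against 7.3%, and GGGCGG, the GC box of SP1, in 60% against 38.2%. CACGTG, the E-box bound by Myc, was in 9.2% against 8.1%, and TATAAA in 10.8% against 15.7%. These are matches of letters, not measured binding.

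In the small subunit the best-known member was steady. Rps6, the protein that the S6 kinases phosphorylate on growth signals, was at 2289, 2292 and 2238 TPM in the controls and 2274, 2185 and 2271 TPM in siHk2 (log2 fold change -0.02 ± 0.04, adjusted p = 0.791). Rps15, close to the decoding site and the most abundant member after Rplp0, was at 3655, 3742 and 3981 TPM against 4069, 3945 and 3958 TPM (0.07 ± 0.05, adjusted p = 0.361). Rps3, at the entry of the messenger RNA channel, was at 570.3, 581 and 698 TPM against 637, 623 and 639 TPM (0.04 ± 0.08, adjusted p = 0.742; 0.14 without library 6, adjusted p = 0.0347, and -0.01 and 0.00 without library 4 or 5). The groups overlapped for all of these. Across the 34 genes of the small subunit none passed in limma, and at an unadjusted p under 0.05 there were 2 higher and 4 lower.

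Some small subunit genes lay lower in siHk2. Rpsa, which also goes by the name of laminin receptor, was at 1619.8, 1694 and 1502 TPM in the controls and 1422, 1470.5 and 1459.9 TPM in siHk2, with the groups apart (-0.14 ± 0.05, adjusted p = 0.113). Rps26, at the messenger RNA exit, was at 1164, 1197 and 1094 TPM against 1080.0, 1063 and 1068 TPM, also apart (-0.10 ± 0.05, adjusted p = 0.169). Rps10, at the entry, was low in every library at 9.67, 10.8 and 8.68 TPM against 6.42, 7.1 and 8.07 TPM (-0.39 ± 0.12, adjusted p = 0.0672), and 92.4% of its windows occur in other transcripts too. Rps12, named because its control values differed, was at 502, 579 and 656 TPM against 486, 435 and 506 TPM. Its groups overlapped by a narrow margin (-0.28 ± 0.10, adjusted p = 0.11).

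Others had positive log2 fold changes. Rps20 was at 186, 192 and 258 TPM in the controls and 262, 254 and 277 TPM in siHk2. Library 6 lay inside the siHk2 range. The log2 fold change was 0.33 ± 0.12 (adjusted p = 0.106 in limma), and 0.48 without library 6 (adjusted p = 0.00322). Without library 4 or 5 it was 0.24 and 0.27 (adjusted p = 0.284 and 0.208). Rps19, mutated in some human patients with Diamond-Blackfan anaemia, was at 163, 174 and 273 TPM against 255, 243.5 and 263 TPM (0.36 ± 0.18, adjusted p = 0.222). Library 6 was above every siHk2 library in Rps19. Its log2 fold change was 0.59 without library 6 (adjusted p = 0.00218) and 0.22 without library 4 (adjusted p = 0.511). In the large subunit Rpl26, near the tunnel exit, was at 31.2, 35.4 and 38.4 TPM against 40.8, 41.1 and 46.2 TPM. The groups were apart. The log2 fold change was 0.28 ± 0.09 (adjusted p = 0.0732 in limma), and 0.35 without library 6 (adjusted p = 0.0375). It was 0.20 and 0.29 without library 4 or 5 (adjusted p = 0.191 and 0.107). Of the 32 genes called higher without library 6, 19 belong to the large and 13 to the small subunit, and for 30 of them library 6 itself was at or above the lowest siHk2 library. The 5 called lower without it were Rpl12, Rpl8, Rpsa, Rpl4 and Rps26.

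The size of the coding sequence went along with these differences between libraries. The 12 genes with coding sequences of up to 300 bases summed to 5666, 5778 and 7822 TPM in the controls and 7949.9, 7103 and 8039 TPM in siHk2, a ratio of means of 1.20. The other 73 had a ratio of 1.00. The median log2 deviations of the 12 short genes were -0.41, -0.45 and 0.26 in siControl libraries 4, 5 and 6 and 0.22, 0.08 and 0.28 in siHk2 libraries 1, 2 and 3. For the 24 genes over 600 bases they were -0.03, 0.00 and 0.08, and 0.00, -0.01 and -0.02.

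Other short protein-coding genes leaned the same way by less. For 249 tested genes outside the ribosome with coding sequences of up to 300 bases the medians were -0.09, -0.09 and 0.05 in siControl and 0.06, 0.03 and 0.08 in siHk2. Over the 85 ribosomal protein genes Spearman's rho between coding length and deviation was 0.49, 0.52 and -0.41 in the controls and -0.63, -0.21 and -0.49 in siHk2, and between coding length and log2 fold change it was -0.51. These describe genes of the same libraries, which are not independent. The labels' protocol selects library fragments by size, and its part here was not tested.

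**Figure D4:**
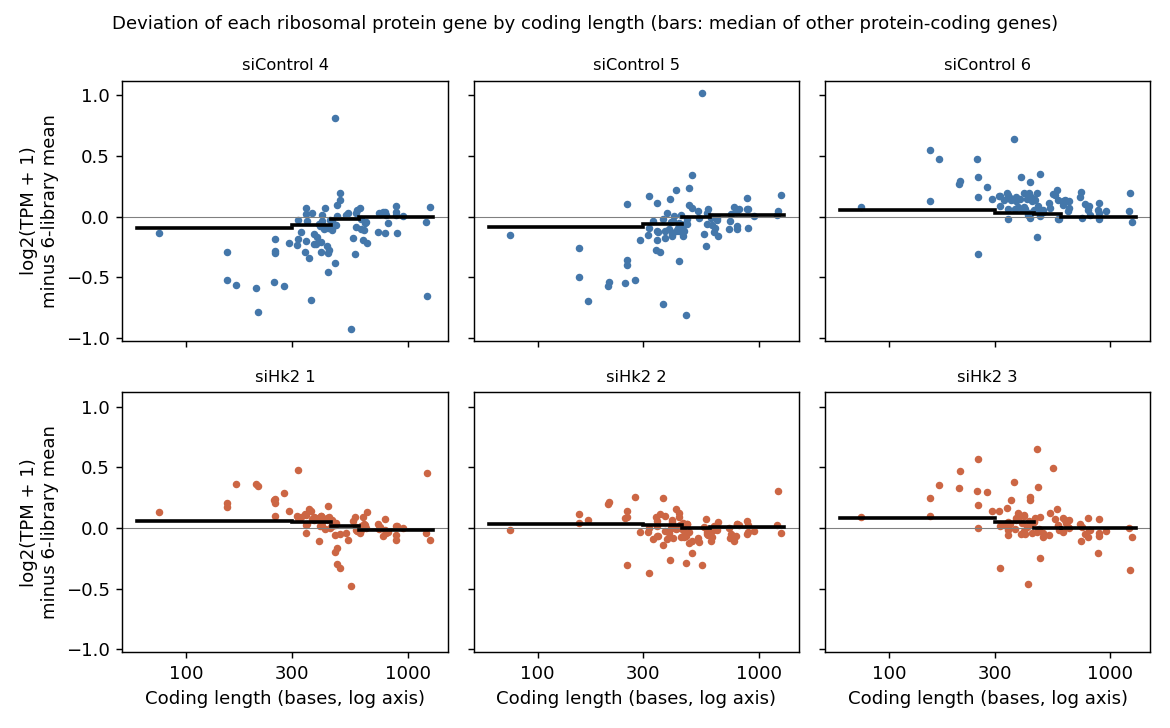
Each dot is one of the 85 ribosomal protein genes in one library, with coding length in bases on a log axis and log2(TPM + 1) minus the gene's mean over the 6 libraries on the other axis. Black bars give the median of other protein-coding genes in the same length class. The 12 ribosomal protein genes of up to 300 bases have medians of -0.41 and -0.45 in siControl libraries 4 and 5. Their medians are 0.26 in siControl library 6 and 0.22, 0.08 and 0.28 in siHk2 libraries 1, 2 and 3. Single genes such as Rps27rt depart from this.

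Expression levels of the members spread widely for proteins used in nearly equal number. TPM is corrected for length, so levels can be compared between genes, as far as reads shared between copies allow: 26 genes had a mean of at least 1000 TPM, 48 lay from 100 to under 1000 TPM, 5 from 10 to under 100 TPM and 6 under 10 TPM. The top 5 by mean were Rplp0, Rps15, Rplp1, Rpl41 and Rpl8, and their order was not the same in every library: Rps15 and Rplp1 changed places, as did Rpl41 and Rpl8, and in siControl libraries 4 and 5 Rpl41 was below Rpl19 (2759.7 and 2766 TPM). The lowest 5 were Rpl3l, Rps23rg1, Rpl24, Rpl36al and Rps10. Rpl24, the usual gene of a large subunit protein, was at 2.71, 3.76 and 4.12 TPM in the controls and 3.65, 3.93 and 5.12 TPM in siHk2, and 81.7% of its 50-base windows occur in other transcripts too.

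Ribosomal protein genes have many processed pseudogenes, and nothing in the labels or the table says how reads that match several copies were assigned. In the GENCODE M21 transcripts, the median member shared 60% of its 50-base windows with another gene or pseudogene, 54 of 85 shared at least 50%, and 3 shared none, among them Rpl3l and Rpl39l. Levels of single members are therefore uncertain. Rps18, for example, was at 86 to 103 TPM, while its copy Rps18-ps5, which the naming rule leaves out, was at 432, 443 and 797 TPM in the controls and 804, 789.4 and 793 TPM in siHk2. The copy took 83.2% to 89.9% of the pair's summed level, and libraries 4 and 5 were low in it as in the short genes. Rpl17, at 347, 1340.0 and 753 TPM against 474, 536 and 930.2 TPM, and Rps27a, which makes a small subunit protein fused to ubiquitin, at 400.5, 129 and 202 TPM against 198, 186 and 358 TPM, varied within each group by more than the group means differed.

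Of the 8 second genes none passed in limma, and at an unadjusted p under 0.05 there was 1, Rpl39l. Rpl22l1, the paralog of the RNA-binding protein Rpl22, was at 65.7, 64 and 166 TPM in the controls and 117, 126 and 139 TPM in siHk2 (0.51 ± 0.33, adjusted p = 0.348; 0.96 without library 6, adjusted p = 0.00186, and 0.30 and 0.28 without library 4 or 5, adjusted p = 0.674 and 0.627). It made up 48.4%, 43.4% and 65.8% of the summed level of the pair in the controls and 57.4%, 62.1% and 60.8% in siHk2. Library 6 had the highest share and libraries 4 and 5 the lowest. Rpl22 itself was at 69.96, 83.6 and 86.4 TPM against 87.1, 76.9 and 89.3 TPM.

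Rpl39l, best known from the testis, was at 188, 191 and 250.5 TPM in the controls and 265, 249 and 246 TPM in siHk2. It made up 44.2% to 55.6% of its pair with Rpl39. Its log2 fold change was 0.28 ± 0.11 (adjusted p = 0.124 in limma), and 0.42 without library 6 (adjusted p = 0.00396). Without library 4 or 5 it was 0.21 and 0.22 (adjusted p = 0.326 and 0.243). Rps27l was at 185, 163 and 235 TPM against 225, 223 and 239 TPM (0.25 ± 0.12, adjusted p = 0.209; 0.40 without library 6, adjusted p = 0.011, and 0.13 without library 5, adjusted p = 0.411). Its sum with Rps27 held 36.1% to 41.9% of Rps27l in all libraries. Rps27rt, a further copy of Rps27, ranged from 382 to 701 TPM with overlapping groups, and 91.1% of its windows are shared. Rpl7l1 was at 183, 175 and 207 TPM against 179, 169.9 and 167 TPM (-0.13 ± 0.07, adjusted p = 0.239). Rpl36al, Rps23rg1 and the striated muscle gene Rpl3l stayed under 10 TPM in every library.

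Fau and Rack1 encode ribosomal proteins under other names and fell outside the naming rule. Fau, which makes a small subunit protein fused to a ubiquitin-like one, was at 677, 680.2 and 898 TPM in the controls and 916, 845 and 905 TPM in siHk2, again with libraries 4 and 5 low (0.25 ± 0.11, adjusted p = 0.161). Rack1, a scaffold on the head of the small subunit, was at 915, 916 and 899 TPM against 904, 886 and 892 TPM, with overlapping groups (-0.03 ± 0.04, adjusted p = 0.677).

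Several genes that build ribosomes fell. Of 45 assembly factors of the large subunit 12 were lower and none was higher in limma (2 were higher at an unadjusted p under 0.05), with a median log2 fold change of -0.14. The smallest p-values were those of Mak16, Ncl and Nop16. Mak16 was at 62.1, 60.6 and 62.7 TPM in the controls and 46.1, 45.8 and 46.6 TPM in siHk2 (-0.41 ± 0.04, adjusted p = 0.00278). Ncl, which encodes nucleolin, was at 406, 417 and 394 TPM against 324, 329.8 and 335 TPM (-0.30 ± 0.04, adjusted p = 0.00575), and Nop16 had a log2 fold change of -0.35 ± 0.05 (adjusted p = 0.00635). In these genes the control libraries lay close together and every siHk2 library was below them.

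Of 45 assembly factors of the small subunit 9 were lower and 1, the kinase Riok3, was higher, with a median of -0.10. Nop56 and Fbl, which belong to the particles that methylate ribosomal RNA, had log2 fold changes of -0.27 ± 0.04 (adjusted p = 0.00945) and -0.28 ± 0.05 (adjusted p = 0.013). Riok3 was at 28.1, 30.9 and 29.5 TPM in the controls and 38.3, 42.2 and 39.8 TPM in siHk2 (0.43 ± 0.06, adjusted p = 0.00715). Of the 8 tested chaperones that escort ribosomal proteins 5 were lower: Nap1l1, Tsr2, Grwd1, Aamp and Heatr3. The lists overlap, and Tsr2 is also counted among the 9 lower assembly factors of the small subunit. Tsr2, the chaperone of Rps26, was at 35.1, 38.5 and 38.99 TPM against 29.7, 29.97 and 30.4 TPM (-0.31 ± 0.06, adjusted p = 0.0163), and Nap1l1 had -0.32 ± 0.04 (adjusted p = 0.00502). Of 14 RNA polymerase I genes 1, Polr1c, was lower (-0.27 ± 0.06, adjusted p = 0.0247). Without siControl library 6 there were 15 lower assembly factors of the large subunit, 8 of the small subunit and 4 chaperones, where 8.27% of all tested genes were lower, and without siControl library 5 there were 9, 6 and 4, where 5.98% were. Without siControl library 4 or siHk2 library 1, 2 or 3 there were 5, 5, 4 and 4 of the large subunit, 2, 3, 2 and 1 of the small subunit, and 2, 2, 1 and 1 chaperones. In those fits the share of all tested genes called lower was also smaller, at 2.85%, 3.5%, 3.32% and 2.35%. Each count over all libraries stands beside the 7.42% of all tested genes that were lower, and was not tested as a group.

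**Figure D5:**
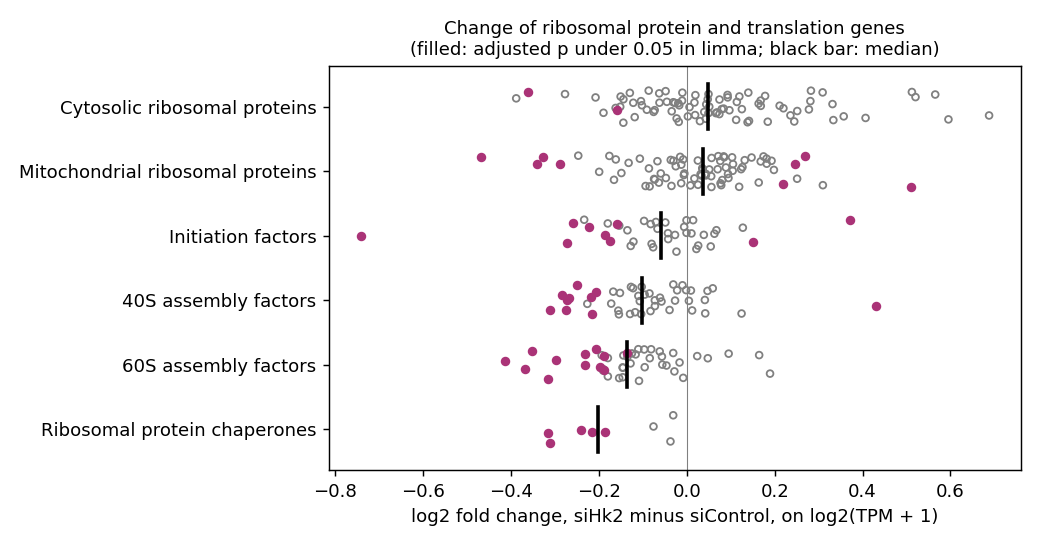
Log2 fold change of each gene, siHk2 minus siControl on log2(TPM + 1), by group, with genes at an adjusted p under 0.05 in limma filled and the median as a black bar. The medians run from 0.05 for the cytosolic ribosomal proteins to -0.20 for their chaperones, and 2 of 85 ribosomal protein genes are filled against 12 of 45 assembly factors of the large subunit.

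Genes that carry a TOP motif without encoding a ribosomal protein, and translation factors, were mixed. Of 22 other TOP genes 5 were lower and none higher (median -0.08; 1 higher at an unadjusted p under 0.05), led by Nap1l1, Vim and Eef1d, an exchange factor subunit for elongation (-0.26 ± 0.05, adjusted p = 0.0148), which was the 1 gene called among 10 elongation and release factors. Of 38 initiation factors 7 were lower and 2 higher. Over all tested genes 7.42% were lower and 6.15% higher in limma, together 13.6%. Called in either direction were 22.7% of the other TOP genes, 23.7% of the initiation factors and 10% of the elongation and release factors. These lists were not tested as groups. Denr was at 50.9, 48.8 and 49.5 TPM in the controls and 28.9, 30.1 and 29.1 TPM in siHk2 (-0.74 ± 0.05, adjusted p = 0.000579), while its partner in reinitiation, Mcts1, was at 69.8, 72.6 and 77.98 TPM against 99.9, 94.4 and 91.7 TPM (0.37 ± 0.06, adjusted p = 0.00891). Eif4a1, the helicase that opens leader sequences, had -0.22 ± 0.05 (adjusted p = 0.0227). Each siHk2 library lay beyond each control for all of these. Some lower TOP genes were counted in another list too: Nap1l1 with the chaperones, Npm1 with the large subunit assembly factors and Eif3l with the initiation factors. Without siControl library 6 there were 10 lower TOP genes and 12 lower initiation factors, where 8.27% of all tested genes were lower. Without siHk2 library 1, 2 or 3 there were 3, 2 and 1 lower TOP genes and 1 lower initiation factor each time. In those fits 3.5%, 3.32% and 2.35% of all tested genes were lower. Without siControl library 4 or 5 there were 2 lower initiation factors, where 2.85% and 5.98% of all tested genes were lower.

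Among 15 regulators of ribosomal protein and TOP genes 2 were lower and none was higher, with a median log2 fold change of 0.02. That is 13.3% of the list, close to the 13.6% of all tested genes that passed. Myc, a transcription factor that drives ribosome production, was at 205, 219 and 167 TPM in the controls and 138, 155 and 150.3 TPM in siHk2 (-0.41 ± 0.10, adjusted p = 0.0369). Larp1, which binds the TOP motif, was at 156, 159 and 139.9 TPM against 131, 128 and 132 TPM (-0.22 ± 0.06, adjusted p = 0.0444). Library 6 was the lowest control in both, and the groups did not overlap. Of 9 genes for ribosome rescue and dormancy Serbp1, which clamps idle ribosomes (-0.47 ± 0.05, adjusted p = 0.00261), and the recycling factor Abce1 (-0.17 ± 0.04, adjusted p = 0.0357) were lower. None of the 4 ubiquitin genes passed in limma, with 1 at an unadjusted p under 0.05.

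The ribosome of mitochondria has its own set of proteins, encoded by the Mrpl and Mrps genes in the nucleus. Of 77 such genes 4 were higher and 4 lower in siHk2, with a median log2 fold change of 0.04, together 10.4% against 13.6% of all tested genes (6.15% higher, 7.42% lower). Their summed level was 5549, 5591 and 5899 TPM in the controls and 5877, 5786 and 5828 TPM in siHk2, a ratio of 1.03, and library 6 was again the highest. Mrpl58, which encodes a peptide release factor built into that ribosome, was at 43.2, 41.7 and 45.2 TPM against 35.6, 35.5 and 34.9 TPM (-0.29 ± 0.05, adjusted p = 0.0139). Mrps18c was at 61.5, 64.5 and 64.4 TPM against 74.4, 71.5 and 76.1 TPM (0.22 ± 0.05, adjusted p = 0.0255). Without siControl library 6, 10 were higher and 5 lower, where 7.66% and 8.27% of all tested genes were. Without siControl library 4 none was higher and 1 lower (2.12% and 2.85% of all tested genes), and without siControl library 5 there were 2 and 4 (5.6% and 5.98%). Without siHk2 library 1, 2 or 3 none was higher and 2, 0 and 0 were lower, where 3.03%, 2.04% and 1.43% of all tested genes were higher and 3.5%, 3.32% and 2.35% lower. Mrpl58 and Mrps18c were chosen for having the smallest p-value in their direction.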

How the data were processed

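Values were deposited by the authors as TPM, rounded to 2 decimals, in 1 table; per the submitters' processing notes the build was GRCm39. Which aligner and counting tool were used, and whether strand was, is not given in these sources, so overlapping and antisense genes may share reads. Per the labels' protocols, RNA was enriched with oligo(dT) and primed with random hexamers. The depth is unknown, since TPM holds no record of it, and no counting interval was given. The siControl columns, numbered 4, 5 and 6, match no sample title and were taken as replicates of the group.

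Tested were the 13341 genes averaging 1 TPM or more. The model was limma (version 3.58.1, under R 4.3.3) on log2(TPM + 1) (trend, two-sided, Benjamini-Hochberg over all tested genes). The pseudocount understates changes of low genes. The fit was tested on simulated data with independent values for each gene. That test does not cover shifts shared by many genes of a library. Coding lengths and shared windows came from GENCODE M21 (GRCm38), by gene identifier, from the shortest complete principal transcript. Motifs came from RefSeq promoters. Python 3.11.15 was used.

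The members and lists were chosen with earlier results of these data known. Named genes were called members, the 5 highest and 5 lowest by mean TPM, second genes with their partners, Hk2, Fau, Rack1 and up to 3 called genes per list with the smallest p. The other members, among them Rpl38, Rpl37a, Rps28, Rps29, Rps21, Rps12, Rps20 and Rpl26, were named after their values were seen. Alternatives were other pseudocounts, filters, scalings and library weights, no trend, and leaving out each library. A few genes are left out of the text.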

Additional observations from a re-analysis of the deposited data

How the results depend on the processing

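No paired analysis was possible because the control columns are numbered 4, 5 and 6, unlike the titles, and share no number with siHk2. Leaving out each library in turn, the count over all genes ran from 504 to 2126, ribosomal protein genes higher from 0 to 32 and lower from 0 to 5, their median log2 fold change from 0.00 to 0.11 and the ratio of summed TPM from 0.996 to 1.06. The 32 and the 5 came without siControl library 6, and without any other library both counts were 0. There 1.43% to 5.6% of all tested genes were higher and 2.35% to 5.98% lower, fewer than over all libraries. Counts of lower genes ran from 4 to 15 for assembly factors of the large subunit, 1 to 8 for those of the small subunit, 1 to 4 for chaperones, 1 to 12 for initiation factors, 1 to 10 for other TOP genes, 0 to 5 for mitochondrial ribosomal protein genes, and higher ones of the last from 0 to 10. With no filter on low values the counts were 1186 over all genes, 0 lower ribosomal protein genes, 3 chaperones, 3 initiation factors, 3 other TOP genes and 1 higher mitochondrial ribosomal protein gene. With no trend they were 1057, 0, 2, 1, 3 and 0, with 3 and 5 assembly factors of the small and large subunit. With library weights, 4040 genes passed (15.2% higher, 15.1% lower), 22 ribosomal protein genes higher and 8 lower, 21 assembly factors of the large subunit, 13 initiation factors, 10 other TOP genes and 12 higher mitochondrial ribosomal protein genes. Quantile normalisation gave 1 higher ribosomal protein gene and 3 chaperones, and turned the log2 fold change of Rplp0 to 0.052. Under it Rpl12 lost its call (-0.12, adjusted p = 0.173 in limma) and Rpl41 (0.20) and Rps10 (-0.43) gained one. A minimum mean of 5 TPM added Rpl8, making 3 lower. A pseudocount of 0.5, and a total without ribosomal protein and mitochondrial genes, each left 1 lower. Centring by coding length, chosen after seeing the data, gave 0 higher and 3 lower, Rpl21, Rpl12 and Rps12. Within 50 bases of the start, CCGGAAG was found for 21.5% of the ribosomal protein genes with a promoter (6.0% of all genes with one). GGGCGG was found for 36.9% (24.2%) and CACGTG for 3.1% (3.4%, so here below the share of all). The cause of these shifts was not tested. Depth limits the low genes most but is unknown.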
